A study of Mus musculus with 6 samples.

Results

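The genes described here are 216 non-coding RNAs that lie opposite, or start beside, a protein-coding gene in RAW264.7 cells, an established mouse macrophage line. They are the entries of the deposited table with the biotype antisense (188) or bidirectional_promoter_lncRNA (28) whose FPKM, a level scaled for gene length and library size, averaged at least 1 over 6 libraries. They are 216 of 2991 entries with those biotypes, of which 1478 had no count in any library, and of 54532 genes in all. No entry had to be left out for a name beginning with Snhg. The members were thus chosen by their mean FPKM over both groups, and their levels are given as a description. Gm15879, Gm40117 and Gm12207 lay just inside the threshold with means of 1.00, 1.01 and 1.02 FPKM. Just outside it lay Gm14966, Dnmt3aos and Gm33460 with 0.997, 0.989 and 0.986 FPKM. The mean was at or above 1 FPKM in both groups for 185 members, in C/D alone for 26 and in Gel/S alone for 5.

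The study compared macrophages on a conductive hydrogel system under ultrasound with macrophages on a plain hydrogel at rest. In the C/D group (3 libraries) the cells were kept with GelMA/PEDOT:PSS+PLLA/PDA and received low-frequency ultrasound of 48 kHz for 5 min, which the labels call dynamic. In the Gel/S group (3 libraries) they were kept with GelMA, a light-curable gelatin, under static conditions. Both groups were the same cell line in the same medium at 37 °C, cultured for 3 days, and neither carried a genetic change named in the labels. PEDOT:PSS is a conducting polymer, PLLA a polyester used in implants and PDA a mussel-inspired coating polymer. Material and ultrasound changed together, so their effects cannot be told apart. The labels do not say that the 3 libraries of a group came from separate cultures, so the p-values measure the spread between these libraries, which may be technical. The table names its columns after ultrasound and gel, and the ultrasound columns were read as C/D. Every direction below rests on that reading.

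Many mammalian promoters fire in both directions, giving an mRNA on one strand and a shorter, unstable RNA on the other. Such divergent RNAs are usually ended early by cleavage and polyadenylation or by the Integrator complex, and then degraded by the nuclear exosome. Antisense RNAs overlap a gene on the other strand, and a few, such as Airn at the imprinted Igf2r gene, silence their partner in cis, whereas many have no known effect on it.

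Each member was paired with the coding gene on the opposite strand whose span it overlapped most or, without an overlap, with the nearest one. Positions and pair results below rest on this rule. By distance between start sites, 68 of the members would have another partner. Of the 216 members, 179 overlapped a coding span. In 33 pairs the genes stood head to head (5′ ends side by side, read in opposite directions) without overlapping, and in 50 head to head with overlapping 5′ parts. A further 39 pairs overlapped tail to tail, 4 lay tail to tail apart, 81 members lay inside their partner and 9 spanned it. The partners were 212 distinct genes, and 8 members shared their partner with another member. Coordinates are those of the deposited table (GRCm38).

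The start regions of 4 head-to-head pairs that the results return to show how close the start sites lie. Each window runs from 250 bases before to 50 bases after the coding gene's start in RefSeq (GRCm38.p6), is written 5′ to 3′ on the coding gene's strand, and has the bases between the 2 start sites of the deposited table in capitals. In the first pair the RNA rose and its partner fell, in the second both rose, and in the last pair of windows the RNA rose while the partner did not pass the test.
Zdhhc7 and A130014A01Rik, chr8:120101423-120101722, strand minus: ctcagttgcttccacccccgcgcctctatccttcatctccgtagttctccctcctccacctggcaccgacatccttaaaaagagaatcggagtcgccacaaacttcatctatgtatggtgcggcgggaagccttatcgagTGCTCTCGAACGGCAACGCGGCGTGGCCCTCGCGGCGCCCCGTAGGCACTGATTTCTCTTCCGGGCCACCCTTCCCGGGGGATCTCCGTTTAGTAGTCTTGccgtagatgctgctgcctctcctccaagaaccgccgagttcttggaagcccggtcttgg
Grtp1 and 2810030D12Rik, chr8:13200575-13200874, strand minus: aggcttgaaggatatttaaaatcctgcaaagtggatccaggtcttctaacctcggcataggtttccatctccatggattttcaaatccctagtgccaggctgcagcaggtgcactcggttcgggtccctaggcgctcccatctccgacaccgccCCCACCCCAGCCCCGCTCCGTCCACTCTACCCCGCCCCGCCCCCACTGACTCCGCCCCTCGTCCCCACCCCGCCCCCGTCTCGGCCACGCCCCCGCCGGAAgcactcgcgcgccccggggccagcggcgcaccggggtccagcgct
Ap3b1 and Gm9776, chr13:94358710-94359009, strand plus: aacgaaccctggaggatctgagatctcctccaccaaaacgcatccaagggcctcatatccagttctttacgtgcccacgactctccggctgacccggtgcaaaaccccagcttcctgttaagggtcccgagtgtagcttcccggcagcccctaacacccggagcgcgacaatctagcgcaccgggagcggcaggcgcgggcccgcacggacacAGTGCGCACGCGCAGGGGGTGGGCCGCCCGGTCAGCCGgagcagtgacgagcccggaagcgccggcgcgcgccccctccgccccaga
Pik3c2a and AV356131, chr7:116443409-116443708, strand minus: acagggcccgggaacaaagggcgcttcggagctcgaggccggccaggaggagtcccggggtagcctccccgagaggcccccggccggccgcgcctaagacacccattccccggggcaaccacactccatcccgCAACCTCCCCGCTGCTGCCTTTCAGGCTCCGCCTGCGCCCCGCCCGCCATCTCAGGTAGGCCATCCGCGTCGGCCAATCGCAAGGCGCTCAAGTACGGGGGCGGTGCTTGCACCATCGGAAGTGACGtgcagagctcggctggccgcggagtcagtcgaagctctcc
The stretch in capitals was 101 bases long for Zdhhc7 and for Grtp1, 38 for Ap3b1 and 127 for Pik3c2a. It held GGGCGG, the core of the GC box, on either strand in the Grtp1, Ap3b1 and Pik3c2a windows, and CCAAT in the Pik3c2a window. No window held TATAAA. RefSeq had a promoter window for the partners of 71 of the 83 head-to-head members. Of these 71 windows, 48 (67.6%) held GGGCGG, against 46.2% of the 21263 windows of coding genes, which were taken whatever the level of the gene here. CCAAT was in 35.2% of them, against 38.2% of the coding windows, and TATAAA in 8.45%, against 12.6%. The median number of CpG dinucleotides was 26 in the head-to-head windows and 13 in the coding windows. Among the partners of head-to-head RNAs that rose, 18 of 23 (78.3%) held GGGCGG, against 30 of 48 (62.5%) for those that did not pass the test. CCAAT was in 5 of the 23 (21.7%), against 20 of the 48 (41.7%). The cyclic AMP element TGACGTCA was in 2.82% of the head-to-head windows, against 2.23% of the coding windows. Letters were searched on both strands, neighbouring matches could share end letters, and a match is a description of sequence alone.

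The C/D libraries held 12818831 to 15802627 counts and the Gel/S libraries 15579679 to 16525699. Members took 0.130% to 0.137% of all counts in C/D libraries, against 0.0935% to 0.110% in Gel/S libraries. The share of lincRNAs, which are non-coding genes away from coding ones, moved with it, at 0.835% ± 0.0314 in C/D and 0.580% ± 0.0286 in Gel/S (SD, n = 3 each). So did the share of mitochondrial genes, at 9.84% ± 0.606 in C/D and 7.34% ± 1.72 in Gel/S. The smallest exact two-sided permutation p that 3 libraries against 3 allow is 0.1, and all of these shares gave it. All 8 macrophage markers were tested, with a summed FPKM of 9990 to 10100 in C/D and 12000 to 12900 in Gel/S, and 1 of them fell. Osteoclast markers, of a cell type that RAW264.7 cells can form, summed to 36.6 to 42.1 FPKM in C/D and 47.3 to 49.3 FPKM in Gel/S. Of the 6, 3 were tested, 1 rose and 1 fell, and Calcr had no count. The summed markers of fibroblasts, T cells, epithelium and endothelium stayed at or below 0.155 FPKM in every library, and those of B cells between 0.411 and 0.553 in C/D and between 0.215 and 0.511 in Gel/S. Col1a2, Col3a1 and Dcn (fibroblast), Epcam and Krt18 (epithelium), Kdr (endothelium) and Ms4a1 (B cell) had no count. The part of these shares and markers in the results below was not tested. In bulk RNA, fewer cells of a kind and less RNA per cell cannot be told apart.

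Members are low: their mean count per library was 3.33 at the lowest, 37.0 at the median and 2616 at the highest, and 24 members had a mean under 10. Counting error is therefore large for most of them. No source used here gives whether the libraries kept strand, and without strand the reads of a gene and of its antisense partner cannot be told apart. Some measurements bear on how overlaps were counted. Of 25 antisense or bidirectional entries with at least 90% of their exon bases inside exons of a partner of 10 FPKM or more, 24 had no count, and the highest reached 0.153 FPKM. Of 201 entries with no base in a coding exon and a partner at that level, 41 had no count, and the highest reached 26.2 FPKM.

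Most members that changed were higher in C/D. With edgeR's quasi-likelihood test and Benjamini-Hochberg adjustment over the 11710 genes of at least 1 FPKM, 49 of the 216 members rose (22.7%), 4 fell (1.85%) and 163 did not pass an adjusted p of 0.05. Over all 11710 genes 13.1% rose and 13.9% fell. The median log2 fold change of the members was 0.41, against 0.007 over all genes tested, and 177 of 216 lay above 0. The 49 that rose ran from 0.37 to 1.77 on the log2 scale, and 13 of them were at least 2-fold higher. At an unadjusted p under 0.05, 78 members were higher and 7 lower. In FPKM, 77 members had all C/D libraries above all Gel/S libraries and 10 all below, where 19.1% and 27.1% of all tested genes did. Of the 49 that rose, 47 had groups that did not overlap.

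The counts depended on single libraries. The number that rose was 29 without C/D replicate 1, 25 without C/D replicate 2 and 30 without C/D replicate 3. At those settings 7.79%, 7.92% and 8.15% of all genes rose, against 13.4%, 11.6% and 13.9% of the members. Without Gel/S replicates 2 and 3, 17.0% and 7.57% of all genes rose, against 28.7% and 15.3% of the members. The excess of rises among members was smallest without Gel/S replicate 1. There 33 members rose (15.3%), only slightly above the share of all genes. The median log2 fold change was 0.356 for the members at that setting and 0.007 for all genes. The 4 that fell became 0 without C/D replicate 1 and 0 without Gel/S replicate 3 in edgeR, with 6 and 8 members lower at an unadjusted p under 0.05, and 1 and 2 without C/D replicates 2 and 3. Of the 49 that rose, 22 passed the test whichever library was left out, and none of the 4 that fell did.

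Levels and the rule itself touch these counts. Of the 185 members at or above 1 FPKM in both groups, 43 rose and 3 fell, and the median log2 fold change was 0.37. Of the 26 members at that level in C/D alone, 6 rose, and of the 5 in Gel/S alone, 1 fell. Of the 33 members of at least 5 FPKM, 15 rose and 3 fell, and of the 183 below it 34 rose and 1 fell. LincRNAs, which were no part of the rule, gave 67 that rose and 4 that fell of 221 (30.3% rose), with a median of 0.396. Coding genes of 1 to 10 FPKM gave 12.2% that rose and 11.5% that fell, with a median of 0.001. The differences between these classes were not tested.

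**Figure D1:**
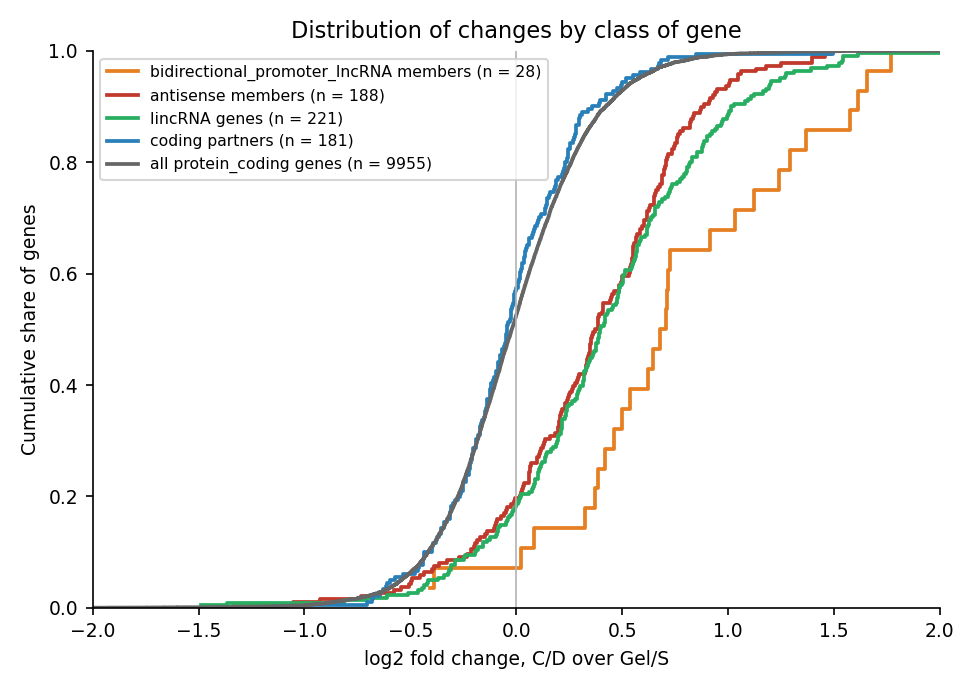
Cumulative share of genes (y axis) by log2 fold change, C/D over Gel/S (x axis), for 28 bidirectional_promoter_lncRNA members, 188 antisense members, 221 lincRNAs, 181 coding partners and 9955 coding genes. Lines further right hold more genes that are higher in C/D: the median is 0.69 for the bidirectional members, 0.38 for the antisense members and 0.40 for lincRNAs, and -0.04 for the coding partners.

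Members filed as bidirectional_promoter_lncRNA rose more often than those filed as antisense. Of the 28 bidirectional_promoter_lncRNA members 14 rose (50.0%) and none fell, where 13.1% of all tested genes rose and 13.9% fell. The median log2 fold change was 0.69, and those that rose ran from 0.42 to 1.77. Those that rose include Gm32031, 2310010J17Rik and Gm9776, which reached a mean of 1 FPKM in C/D alone. They met the level threshold only through the group where they are high, so the share that rose is a description. Left out one at a time, the libraries gave between 11 and 17 rises in this class. Neither edgeR nor DESeq2 had a member of the class lower at an unadjusted p under 0.05. Limma on log2(TPM + 1) had 2 lower at that level and called 0. Of the 188 antisense members 35 rose (18.6%) and 4 fell, with a median of 0.379. By position, 27 of the 83 head-to-head members rose (32.5%) and 0 fell in edgeR and DESeq2. In each of these tests 1 was lower at an unadjusted p under 0.05. Limma called 1 lower on log2(FPKM + 1) and 1 on log2(TPM + 1), with 2 and 5 lower at an unadjusted p under 0.05. The 27 also include Gm32031, 2310010J17Rik and Gm9776, so this share is a description as well. Of the lincRNAs 30.3% rose. The 27 became 18, 16 and 17 without C/D replicates 1, 2 and 3. Of the 42 head-to-head members with start sites within 300 bases of the partner's, 15 rose (35.7%), Gm9776 and 2310010J17Rik among them. Of the 39 that overlapped tail to tail 8 rose (20.5%), and of the 9 that spanned their partner 3 rose (33.3%) and 1 fell. Of the 81 inside their partner 11 rose (13.6%, close to the share of all tested genes) and 3 fell. The 11 became 3, 3, 7 and 6 without C/D replicates 1, 2 and 3 and Gel/S replicate 1. The differences between these biotypes and positions were not tested.

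2810030D12Rik (ENSMUSG00000099338, chr8:13200720-13207714, plus strand) is a divergent RNA whose start lies 100 bases from that of Grtp1, a gene for a TBC-domain protein of the Rab GTPase-activating family. It reached 11.95, 13.2 and 9.68 FPKM in C/D, against 3.74, 3.79 and 4.21 FPKM in Gel/S. Every C/D library lay well above any Gel/S library, and the log2 fold change was 1.61 ± 0.157 (SE, adjusted p = 0.000106, edgeR). Grtp1 moved the same way, at 22.1 ± 1.41 FPKM in C/D and 12.6 ± 1.29 FPKM in Gel/S (SD, n = 3 each), with a log2 fold change of 0.85 (adjusted p = 0.00027, edgeR). The ratio of RNA to partner still rose by 0.73 on the log2 scale (adjusted p = 0.00819, limma).

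A130014A01Rik (ENSMUSG00000097944, chr8:120101582-120103904, plus strand) starts 100 bases from Zdhhc7, which encodes a palmitoyltransferase that attaches fatty acids to proteins. It had 3.48, 3.00 and 2.55 FPKM in C/D, against 1.02, 1.23 and 1.66 FPKM in Gel/S. The groups did not overlap, and the log2 fold change was 1.24 ± 0.226 (SE, adjusted p = 0.00284, edgeR). Zdhhc7 went the other way, at 7.57 ± 0.551 FPKM in C/D and 9.77 ± 0.684 FPKM in Gel/S (SD, n = 3 each), a log2 fold change of -0.33 (adjusted p = 0.0343, edgeR). The call on the RNA held whichever library was left out, whereas the call on Zdhhc7 was lost without any 1 of C/D replicates 1, 2 and 3 or Gel/S replicate 3.

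Several divergent RNAs rose beside a partner that did not pass the test in edgeR. Gm9776 starts 37 bases from Ap3b1, a subunit of the AP-3 adaptor that sorts cargo to lysosomes. It had 1.92, 1.71 and 2.03 FPKM in C/D, against 0.669, 1.10 and 1.06 FPKM in Gel/S, a log2 fold change of 1.03 ± 0.229 (SE, adjusted p = 0.0074, edgeR), while Ap3b1 changed by -0.22 (adjusted p = 0.0533). Gm9776 reached a mean of 1 FPKM in C/D alone. The level threshold was thus met only through the group where it is high, and its rise is a description. All C/D libraries of Ap3b1 lay below all Gel/S libraries, and it was called lower with limma on FPKM or TPM, with edgeR's own filter and without Gel/S replicate 2. AV356131 starts 126 bases from Pik3c2a, a class II phosphoinositide 3-kinase of endocytosis, and had 5.64, 4.81 and 5.58 FPKM in C/D, against 1.75, 3.22 and 2.57 FPKM in Gel/S. None of its C/D libraries was as low as any Gel/S library, and it rose by 1.12 ± 0.262 on the log2 scale (adjusted p = 0.00959, edgeR), beside -0.07 for Pik3c2a (adjusted p = 0.689). C330013E15Rik, which starts 239 bases from Dazap2, a small proline-rich protein, had 3.49, 2.89 and 3.40 FPKM in C/D, against 1.06, 1.62 and 0.657 FPKM in Gel/S. It rose by 1.58 ± 0.332 (adjusted p = 0.00577, edgeR) and Dazap2 changed by -0.24 (adjusted p = 0.0508). Dazap2 was likewise lower in every C/D library, and it was called lower with DESeq2, with limma, with no filter or edgeR's own filter, and without Gel/S replicate 1.

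2610306M01Rik starts 77 bases from Aak1, a kinase of the clathrin adaptor AP-2, and had 5.39, 5.55 and 6.38 FPKM in C/D, against 1.38, 2.74 and 3.15 FPKM in Gel/S. It rose by 1.29 ± 0.27 on the log2 scale (adjusted p = 0.0055, edgeR), and Aak1 was at 0.28 (adjusted p = 0.0589), called higher with upper-quartile scaling and without Gel/S replicate 1. The 2 members with the highest log2 fold changes were also divergent, and both had few counts. Both reached a mean of 1 FPKM in C/D alone, and the level threshold was thus met only through the group where they are high, and their rise and rank are a description. Gm32031 overlaps the 5′ end of the histone chaperone gene Spty2d1, with 43.3% of its exon bases in coding exons. Gm32031 rose by 1.77 ± 0.435 (adjusted p = 0.012) on 13 to 29 counts in C/D and 4 to 9 in Gel/S, and lost the call without C/D replicate 3. 2310010J17Rik, opposite the clathrin assembly gene Picalm, rose by 1.66 ± 0.499 (adjusted p = 0.0293) on 12 to 29 counts in C/D and 3 to 13 in Gel/S, and lost it without C/D replicate 2, C/D replicate 3 or Gel/S replicate 1. Cep83os, 78 bases from the centriole gene Cep83, had 3.82, 4.32 and 4.42 FPKM in C/D, against 3.06, 3.04 and 2.82 FPKM in Gel/S. It rose by 0.54 ± 0.105 (adjusted p = 0.00414, edgeR), a smaller change on 288 to 456 counts a library.

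The highest member was Ndufb1-ps. Its symbol carries the suffix of a pseudogene of a complex I subunit, while the deposited table files it as bidirectional_promoter_lncRNA. Whether it encodes a protein, or shares reads with a near-identical copy, was not tested. It had 62.2, 62.1 and 68.8 FPKM in C/D, against 27.4, 39.6 and 38.2 FPKM in Gel/S. All C/D libraries lay above all Gel/S libraries, and it rose by 0.92 ± 0.131 on the log2 scale (adjusted p = 0.000845, edgeR). It overlaps the 5′ part of Cpsf2, a subunit of the complex that cleaves mRNA 3′ ends. Cpsf2 had 9.61, 10.3 and 11.3 FPKM in C/D, against 15.5, 11.9 and 12.5 FPKM in Gel/S, and did not pass the test (log2 fold change -0.31, adjusted p = 0.0509). It was lower in every C/D library than in any Gel/S library, and called lower with DESeq2's test, with no filter or edgeR's own filter, and without Gel/S replicate 2.

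**Figure D2:**
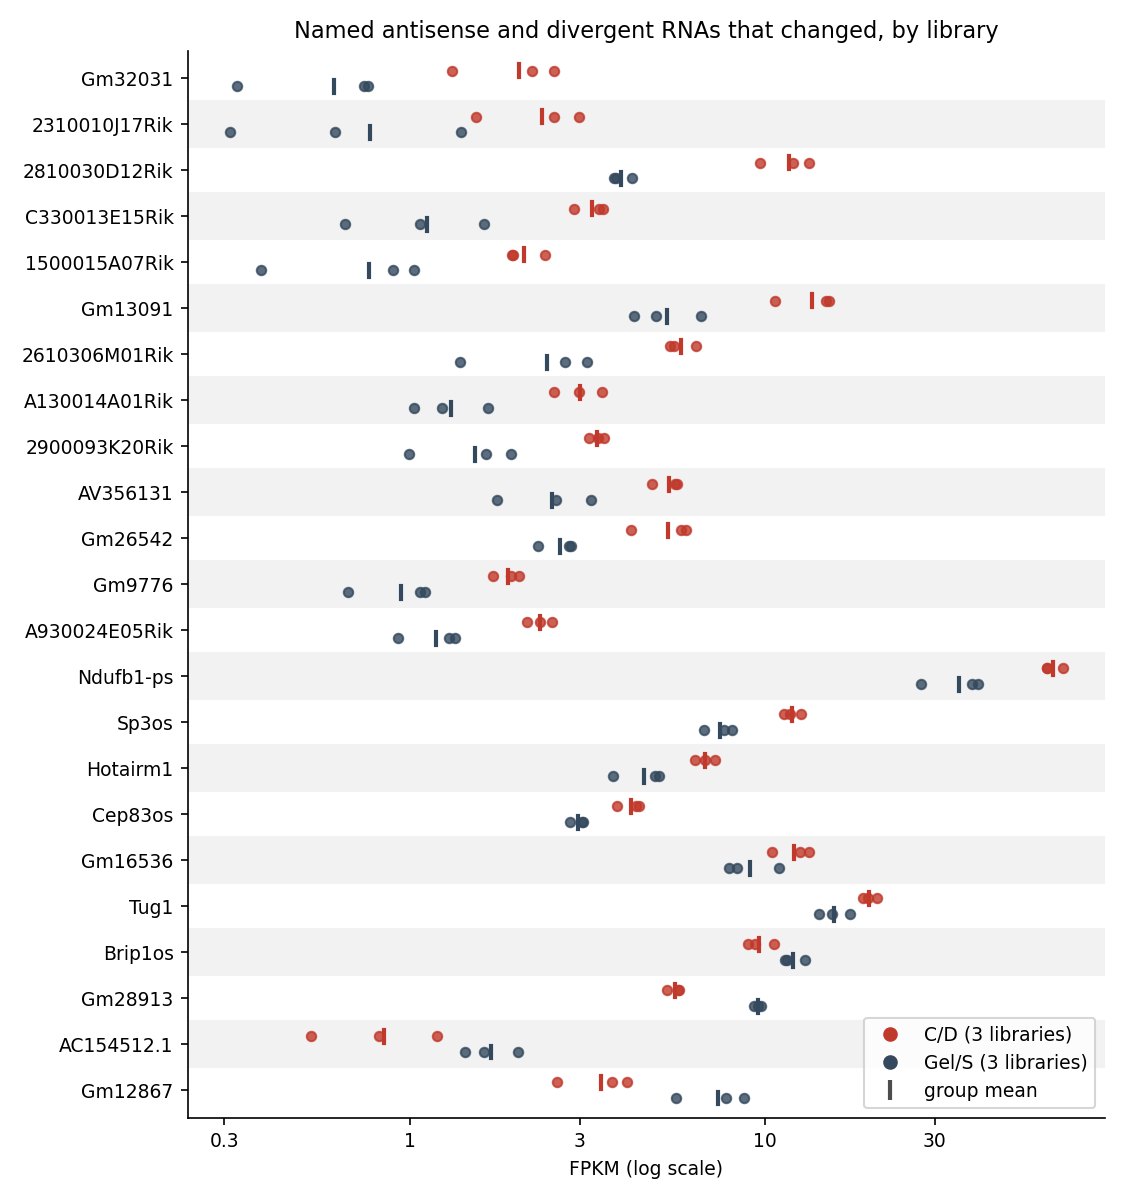
FPKM (log x axis) of the 23 named members that passed the test, 1 line each, in the 3 C/D libraries (upper points) and the 3 Gel/S libraries (lower points), with bars at the group means. The order runs by log2 fold change. Gm32031 at the top averaged 2.02 FPKM in C/D and 0.611 FPKM in Gel/S, and the 4 members at the foot were lower in C/D.

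Among RNAs that are antisense to a gene body, Gm13091 was one of the 10 with the highest levels. It lies inside Rere, which encodes a transcriptional corepressor, and spans 1676 bases at chr4:150566869-150568544 (minus strand), with no base in a coding exon. It had 15.1, 14.8 and 10.6 FPKM in C/D, against 4.27, 6.61 and 4.94 FPKM in Gel/S, and rose by 1.40 ± 0.238 on the log2 scale (adjusted p = 0.00203, edgeR). Rere rose as well, at 25.8 ± 1.86 FPKM in C/D and 16.7 ± 2.31 FPKM in Gel/S (SD, n = 3 each), by 0.68 (adjusted p = 0.00134). The ratio of the pair did not pass (0.68, adjusted p = 0.0798, limma).

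Gm26542 overlaps the tail of Maml1, a coactivator of Notch signalling, and had 5.78, 5.97 and 4.18 FPKM in C/D, against 2.29, 2.81 and 2.83 FPKM in Gel/S. It rose by 1.05 ± 0.2 on the log2 scale (adjusted p = 0.00362, edgeR), but 27.3% of its exon bases lie in coding exons, and 9.13% in exons of Maml1. Maml1 fell, with 4.33 ± 0.283 FPKM in C/D and 5.87 ± 0.13 FPKM in Gel/S (SD, n = 3 each) and a log2 fold change of -0.40 (adjusted p = 0.013). By start site its nearest opposite-strand gene was instead Ltc4s, the leukotriene C4 synthase, which rose by 0.65 (adjusted p = 0.0153). A930024E05Rik overlaps the 5′ part of Kdm2b, a histone demethylase that also brings Polycomb complexes to CpG islands. It had 2.51, 2.33 and 2.14 FPKM in C/D, against 0.924, 1.34 and 1.29 FPKM in Gel/S, and rose by 1.01 ± 0.231 (adjusted p = 0.00851, edgeR). Kdm2b fell, at 1.59 ± 0.0745 FPKM in C/D and 2.67 ± 0.717 FPKM in Gel/S (SD, n = 3 each), by 0.71 on the log2 scale (adjusted p = 0.00793). In this pair the RNA was above its partner in C/D and below it in Gel/S, per length.

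Other antisense members rose with less firm calls. 2900093K20Rik, inside the oxidative stress gene Oser1, rose by 1.18 ± 0.337 (adjusted p = 0.0237, edgeR) on 25 to 30 counts in C/D and 9 to 17 in Gel/S. Its call was lost without any 1 of C/D replicates 1, 2 and 3 or Gel/S replicate 1. 1500015A07Rik overlaps the tail of Afap1l1, which was too low to test, and had 1.94, 1.95 and 2.40 FPKM in C/D, against 0.382, 1.03 and 0.897 FPKM in Gel/S. It, like Gm9776, met the level threshold through C/D alone. It rose by 1.49 ± 0.308 (adjusted p = 0.0053, edgeR), and Grpel2, a mitochondrial import cochaperone that starts 59 bases away, rose by 0.38 (adjusted p = 0.0227). Gm16536 lies inside Bace1, the β-secretase gene, and rose by 0.46 ± 0.152 (adjusted p = 0.0423, edgeR) with overlapping groups. Its call was lost without any 1 of C/D replicates 1 and 2 and Gel/S replicates 1 and 2. Sp3os, which starts beside the transcription factor gene Sp3, rose by 0.71 ± 0.146 (adjusted p = 0.00523), at 11.3, 11.7 and 12.6 FPKM in C/D, against 7.65, 8.06 and 6.71 FPKM in Gel/S, while Sp3 changed by -0.11 (adjusted p = 0.519). Sp3os overlaps the low coding entry Gm11084 more than Sp3, and Gm11084 had at most 10 counts in any library.

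The 4 members that fell were all antisense, and 3 of them lie inside a coding gene. Gm12867 lies in an intron of Slc2a1, the gene for the glucose transporter GLUT1 (chr4:119130292-119131001, minus strand), with no base in a coding exon. It had 3.70, 2.58 and 4.07 FPKM in C/D, against 5.61, 8.68 and 7.75 FPKM in Gel/S, a log2 fold change of -1.05 ± 0.285 (SE, adjusted p = 0.019, edgeR). Slc2a1 fell by about as much, with 55.9, 59.5 and 61.2 FPKM in C/D, against 126.6, 117.3 and 115.7 FPKM in Gel/S and a log2 fold change of -0.98 ± 0.0862 (adjusted p = 6.29e-05). The log2 ratio of the pair changed by -0.01 ± 0.29 (SE, adjusted p = 0.988, limma). The call on Gm12867, which had 19 to 28 counts in C/D and 41 to 64 in Gel/S, was lost without C/D replicate 1, C/D replicate 2 or Gel/S replicate 3.

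Gm28913 lies inside Ikbke, a kinase of the interferon pathway, and had 5.70, 5.30 and 5.66 FPKM in C/D, against 9.28, 9.54 and 9.72 FPKM in Gel/S. It fell by 0.73 on the log2 scale (adjusted p = 0.0306, edgeR), and its call was lost without any 1 of C/D replicates 1, 2 and 3 or Gel/S replicate 3. Ikbke changed by -0.17 (adjusted p = 0.199). AC154512.1, inside the almost silent Ostn gene, had 0.527, 1.19 and 0.821 FPKM in C/D, against 1.43, 2.01 and 1.62 FPKM in Gel/S. It fell by 0.93 (adjusted p = 0.0373), a call lost without any 1 of C/D replicates 1 and 3 and Gel/S replicates 2 and 3. AC154512.1 met the level threshold through Gel/S alone, the group where it is high, and its fall is a description. Brip1os spans Ints2 and starts 177 bases from Brip1, a helicase of DNA repair. It fell by 0.27 ± 0.0922 (adjusted p = 0.049, edgeR), at 9.32, 8.91 and 10.6 FPKM in C/D, against 12.9, 11.5 and 11.4 FPKM in Gel/S, and lost the call without any 1 of C/D replicates 1 and 2 and Gel/S replicates 1 and 3. Brip1 also fell, by 0.49 (adjusted p = 0.0169), and Ints2 changed by -0.19 (adjusted p = 0.276).

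The best-known members rose slightly or did not pass. Tug1, a long nuclear RNA that shares its promoter region with Morc2a, had 18.9, 20.6 and 19.4 FPKM in C/D, against 14.2, 17.3 and 15.4 FPKM in Gel/S. It rose by 0.37 ± 0.0967 on the log2 scale (adjusted p = 0.0158, edgeR), a call lost without C/D replicate 2, C/D replicate 3 or Gel/S replicate 3. Morc2a, a chromatin ATPase of gene silencing, fell, with 5.69, 6.18 and 6.51 FPKM in C/D, against 8.72, 8.13 and 7.75 FPKM in Gel/S (log2 fold change -0.38, adjusted p = 0.0113). Hotairm1, known from human myeloid cells, had 6.75, 7.22 and 6.36 FPKM in C/D, against 3.72, 4.90 and 5.02 FPKM in Gel/S. It rose by 0.62 ± 0.184 (adjusted p = 0.0283, edgeR), although only leaving out Gel/S replicate 2 kept the call. Airn had 1.92, 1.78 and 1.83 FPKM in C/D, against 1.17, 1.67 and 1.61 FPKM in Gel/S, with no overlap but no call (0.36 ± 0.188, adjusted p = 0.176). Igf2r, the receptor gene that Airn silences in cis, was at -0.04 (adjusted p = 0.838).

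A list of well-known antisense or divergent mouse RNAs had 21 entries. Of these 10 were tested, of which 3 rose and 0 fell, with a median of 0.338. Over all tested genes 13.1% rose and 13.9% fell. Some of the 10 are filed as lincRNAs, of which 30.3% rose. Besides Tug1 and Hotairm1, Epb41l4aos, filed as a lincRNA and so no member, rose by 0.98 ± 0.161 (adjusted p = 0.00169, edgeR).

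Of the 10 members with the highest levels, 4 did not pass the test. Gm17201, inside Ankrd52, averaged 32.1 ± 1.72 FPKM in C/D and 33.2 ± 3.94 FPKM in Gel/S (SD, n = 3 each), but 59.5% of its exon bases lie in coding exons. 4930455G09Rik, beyond the tail of Tmem51, averaged 28.9 ± 3.66 FPKM in C/D and 23.5 ± 5.999 FPKM in Gel/S (adjusted p = 0.191, edgeR). Gm16754, at the tail of Keap1, the sensor that holds back the antioxidant factor Nrf2, had 13.6, 8.76 and 8.89 FPKM in C/D, against 8.12, 8.76 and 8.08 FPKM in Gel/S (adjusted p = 0.112). Only C/D replicate 1 stood clearly above the other libraries. Gm40304, inside the Notch transcription factor gene Rbpj, averaged 9.18 ± 0.932 FPKM in C/D and 9.08 ± 1.25 FPKM in Gel/S.

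The coding partners changed in both directions. Of the 181 distinct partners tested 19 rose (10.5%) and 24 fell (13.3%), beside 12.5% and 15.7% of all coding genes. Their median log2 fold change was -0.04. The 19 became 12, 11, 13 and 12 without C/D replicates 1, 2 and 3 and Gel/S replicate 3, and the 24 became 14, 15, 16 and 41 without C/D replicates 1, 2 and 3 and Gel/S replicate 2. The partner of 32 members was too low to test. Beside the members that rose stood 40 tested partners, of which 5 rose, 5 fell and 30 did not pass. The 5 that rose were Grtp1, Rere, Bace1, Slc25a36 and Dcaf5. Those that fell were Zdhhc7, Maml1, Kdm2b, Morc2a and Oser1. The call on Oser1 was lost with DESeq2's test, with upper-quartile scaling, with replicate number as a block, and without any library other than Gel/S replicate 2. That on Zdhhc7 was lost with the same block and without any 1 of C/D replicates 1, 2 and 3 or Gel/S replicate 3. That on Maml1 was lost without C/D replicate 2, that on Morc2a without C/D replicate 1, and those on Kdm2b and Bace1 with limma on log2(TPM + 1). Across 184 pairs the log2 fold changes of member and partner had a Pearson r of 0.162, and 0.0372 across 5447 other opposite-strand pairs. Genes of a pair share libraries, and overlapping ones may share reads, so these values are descriptions without a test. The value was 0.314 over the 67 members inside their partner, 0.193 over the 32 head-to-head pairs apart, 0.0358 over the 46 head-to-head pairs that overlap, and -0.178 over the 30 overlapping tail-to-tail pairs.

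**Figure D3:**
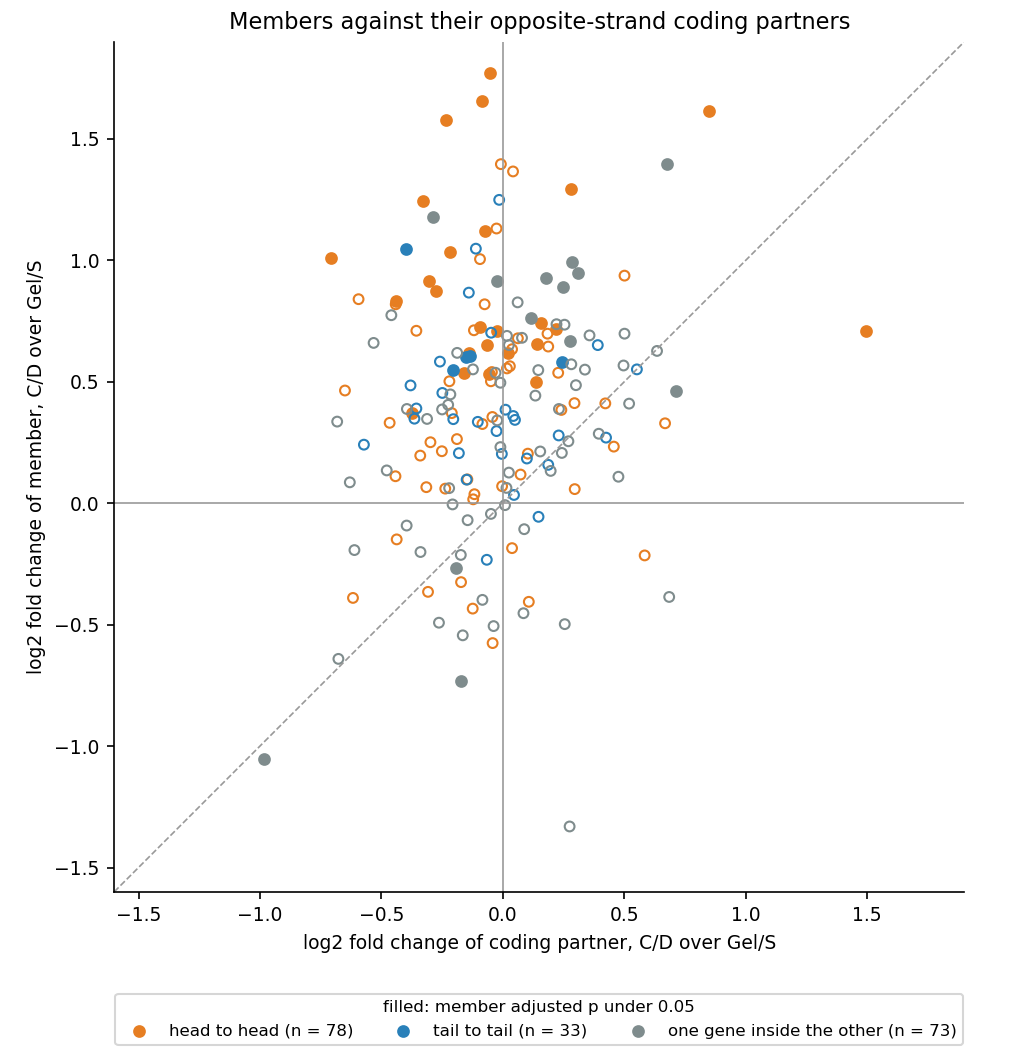
Log2 fold change of each of 184 members (y axis) against that of its coding partner (x axis), C/D over Gel/S, coloured by position (head to head, tail to tail, 1 gene inside the other) and filled where the member passed the test. The dashed line marks equal change. Most filled points lie above 0 on the y axis and spread to both sides of 0 on the x axis, and Gm12867 with Slc2a1 lies at the lower left with both near -1.

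The change of a member relative to its partner was tested directly with limma on the log2 ratio of CPM, counts scaled to the library total, which cancels the scaling between libraries. Of 184 pairs 39 had a higher ratio in C/D, 2 a lower one and 143 did not pass, with a median change of 0.426. Over all 5631 opposite-strand pairs 27.7% passed in either direction. Over 926 other pairs of a non-coding and a coding gene 16.1% were higher and 3.89% lower. The 152 lincRNA pairs among them had 46 higher and 2 lower, with a median of 0.411. The 41 pairs became 20, 16, 23 and 25 without C/D replicates 1, 2 and 3 and Gel/S replicate 3, and 12 passed whichever library was left out. Higher ratios were found in 14 of 32 head-to-head pairs apart, in 14 of 46 that overlap, in 7 of 67 with the member inside and in 4 of 30 overlapping tail to tail. No head-to-head pair had a lower ratio at an unadjusted p under 0.05 in this test, and 1 did on log2(FPKM + 1).

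Of the 39 pairs with a higher ratio, 29 had a member that rose. Its partner did not pass in 22 of them, fell in 5 and rose in 2. In 6 pairs the member did not pass and the partner fell, and in 4 neither passed. The smallest p belonged to A130014A01Rik with Zdhhc7, whose log2 ratio rose by 1.55 ± 0.222 (SE, adjusted p = 0.000902, limma). It was followed by Gm26542 with Maml1 at 1.41 ± 0.218 (adjusted p = 0.0012) and Ndufb1-ps with Cpsf2 at 1.23 ± 0.194 (adjusted p = 0.00131). C330013E15Rik with Dazap2 had the largest change among the 8 pairs of smallest p, 1.78 ± 0.328. Tug1 with Morc2a had 0.75 ± 0.133 and Cep83os with Cep83 0.70 ± 0.132.

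A few pairs outside the naming rule, chosen after their values were seen, show the other patterns. Gm33858, head to head with the chemokine receptor gene Cx3cr1, did not pass, at 5.67 ± 1.04 FPKM in C/D and 4.64 ± 1.04 FPKM in Gel/S (SD, n = 3 each). Cx3cr1 fell, at 118.3 ± 6.99 FPKM in C/D and 168.5 ± 17.7 FPKM in Gel/S, and their log2 ratio rose by 0.79 ± 0.22 (adjusted p = 0.0201, limma). Hk1os inside Hk1, the hexokinase of the first step of glycolysis, had 2.22, 1.88 and 1.58 FPKM in C/D, against 0.684, 1.35 and 1.36 FPKM in Gel/S, and did not pass (adjusted p = 0.0794, edgeR). Hk1 fell by 0.46 on the log2 scale (adjusted p = 0.00623), and the ratio rose by 1.24 ± 0.326 (adjusted p = 0.0157, limma). The lower ratios were those of Gm13748 inside the transcription factor gene Klf7, which changed by -1.46 ± 0.454 (adjusted p = 0.0317) on 2 to 9 counts of Gm13748 in C/D and 10 to 18 in Gel/S, and of 5830432E09Rik inside the phosphatase gene Ptpre at -0.52 ± 0.177 (adjusted p = 0.0456). Neither of these RNAs passed by itself, and each was lower in all C/D libraries than in any Gel/S library.

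**Figure D4:**
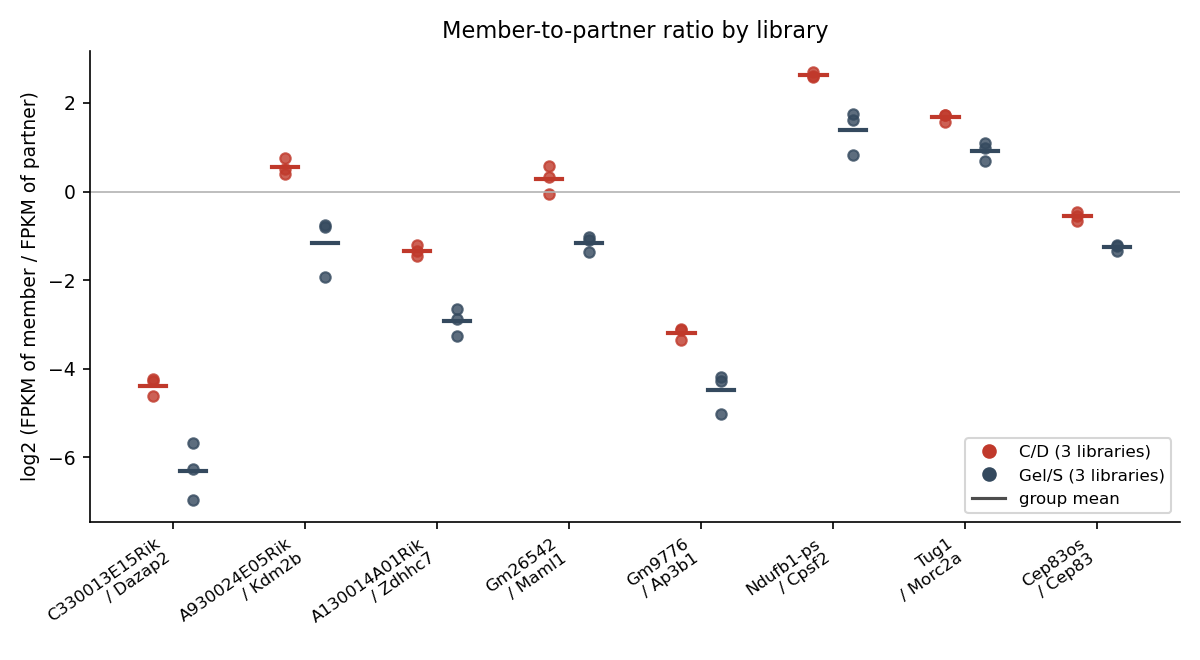
Log2 of the FPKM of the RNA over the FPKM of its coding partner (y axis) in each of the 3 C/D libraries (left of each pair) and 3 Gel/S libraries (right) for the 8 pairs with the smallest p of the ratio, with bars at the group means. In all 8 pairs every C/D library lies above every Gel/S library.

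Genes that end or degrade such RNAs were examined from lists. Of 17 tested genes of the nuclear exosome and its adaptors 1 rose and 1 fell, and the median log2 fold change was -0.01. Zfc3h1, an adaptor that brings polyadenylated nuclear RNA to the exosome, had 16.49 ± 0.885 FPKM in C/D and 13.9 ± 1.20 FPKM in Gel/S (SD, n = 3 each; log2 fold change 0.29, adjusted p = 0.0358, edgeR). Exosc2, an exosome core subunit, fell by 0.32 (adjusted p = 0.0263). Of 14 Integrator genes 0 rose and 2 fell (median -0.18), and neither edgeR nor DESeq2 had one higher at an unadjusted p under 0.05. Ints11, the catalytic endonuclease of the complex, had 6.94 ± 0.113 FPKM in C/D and 11.2 ± 1.15 FPKM in Gel/S, a log2 fold change of -0.64 (adjusted p = 0.00169). Ints8 fell by 0.28 (adjusted p = 0.0369).

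Of 18 cleavage and polyadenylation genes 2 rose and 3 fell, with a median of -0.06. The termination factor Pcf11 rose by 0.43 (adjusted p = 0.00513, edgeR) and the complex subunit Fip1l1 by 0.36 (adjusted p = 0.0112), while Cstf2, which binds the downstream element, fell by 0.62 (adjusted p = 0.00336). Of 13 genes of Dicer, Argonaute and their partners 3 rose and 2 fell (median 0.03), among them Ago3, which rose by 0.73 (adjusted p = 0.000163), Tnrc6b by 0.54 (adjusted p = 0.00384), and the exporter Xpo5, which fell by 0.45 (adjusted p = 0.00561). Of 12 tested genes that edit or sense double-stranded RNA 1 rose and 1 fell, with a median of 0.004. The editing enzyme Adarb1 rose by 0.42 (adjusted p = 0.0307). Over all tested genes 13.1% rose and 13.9% fell. Whether any of these genes bears on the RNAs was not tested.

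In the authors' deposited table, adjusted p-values under 0.05 were held by 32 members higher in C/D and 3 lower. All 35 were also called here and in the same direction, and 18 members were called here alone.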

How the data were processed

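RNA-seq was made from RAW264.7 cells, 3 C/D and 3 Gel/S libraries. Per the labels, total RNA was made into libraries with a SMARTER mRNA kit. Reads were placed on GRCm38 (mm10), per the submitters' processing notes; no source used here gives the aligner, counter, annotation release or strand setting. The authors deposited whole-number counts per gene and FPKM per gene and library, with each gene's listed length. The deposited table also holds the authors' group means, a signal scaled for library size that was not used, their log2 fold changes, given as Gel over ultrasound, and their p-values and adjusted p-values, by a test that no source used here gives.

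Counts of the 11710 genes with a mean FPKM of at least 1 were tested with edgeR 4.0.16 in R 4.3.3 (TMM scaling, quasi-likelihood F test, groups as the only term), with Benjamini-Hochberg adjustment over all of them. "Rose" and "fell" mean an adjusted p under 0.05. Standard errors are the size of each log2 fold change divided by √F. Pair ratios were differences of log2 CPM (prior count 2) tested with limma 3.58.1 over 5631 opposite-strand pairs. Exons came from GENCODE M21, in which 213 of the 216 members had the deposited coordinates, and promoter windows from RefSeq, where 101 members and the partners of 175 members matched by symbol. In 27 entries a symbol that a spreadsheet had turned into a date was restored. Fits were tested on simulated data.

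The text names the members with adjusted p under 0.05 and groups that do not overlap, up to 12 with the highest and 12 with the lowest log2 fold change, the 10 with the highest mean FPKM, the well-known antisense RNAs, and the 8 pairs with the smallest ratio p. Of each machinery list it names up to 3 genes with the smallest adjusted p. Values of 2 coding genes that the rule names are not reported here. The members and lists were chosen with earlier results of these data known. Alternatives were other scalings, DESeq2 1.42.0, limma on log2(FPKM + 1) or log2(FPKM + 0.1), other filters and partner rules, the replicate block, and each library left out. Limma on log2(TPM + 1), members with no base in a coding exon, and members at 1 FPKM in both groups were added after seeing the data. Library totals were 12818831 to 16525699 counts.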

Additional observations from a re-analysis of the deposited data

How the results depend on the processing

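Under DESeq2 size factors, upper-quartile scaling, DESeq2's test, limma on log2(FPKM + 1), limma on log2(FPKM + 0.1), no filter and edgeR's own filter, 44 to 51 members rose. With limma on log2(TPM + 1) 32 members rose and 9 partners rose, and the median of all genes shifted to -0.12 there, against 0.23 for the members. Without a filter 38 partners fell. With partners chosen by start-site distance, 24 partners rose, 23 fell and 48 pairs had a changed ratio. The r of member and partner changes was 0.113 there. Members that fell numbered 2 with DESeq2. Among members of at least 2 FPKM 8 partners rose and 14 fell. Members that overlap no opposite-strand coding span gave 12 that rose and 0 that fell in edgeR, with 1 partner that rose and 3 that fell, since 37 members were left. Members with no base in a coding exon gave 18 that rose and 1 that fell of 84. Leaving out 1 library gave 25 to 62 members that rose and 0 to 5 that fell, 11 to 26 partners that rose and 14 to 41 that fell, 16 to 51 pairs with a changed ratio, and an r of member and partner changes of 0.123 to 0.197. Apart from these settings' own construction (fewer genes or libraries), the cause was not tested. No called result changed direction. Over 54 named genes, 686 values under the alternatives kept their sign and side of the threshold, 69 lost the call and 29 gained one. A further 25 values, over 8 genes that passed in neither fit, had the other sign.

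Replicates of the groups were only numbered alike, and whether same numbers belong together is not known. Deviations of same-numbered libraries correlated at -0.057, -0.058 and 0.045, and those of differently numbered libraries at -0.093 to 0.131. With the replicate block 42 members rose, 2 fell, 18 partners rose, 20 fell and 36 pairs had a changed ratio. Depth limits the low members, since 24 averaged under 10 counts a library.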
